A study of Canis lupus familiaris with 12 samples.

Results

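The genes described here encode nucleolar ribosome biogenesis factors of dog kidney epithelial cells. They were taken by name, as every probe set whose annotation gave 1 gene symbol beginning with POLR1, or with NOP, UTP, NOL or RRP and a digit, together with NOB1, FBL, NCL, NPM1, BOP1, PES1, WDR12, RRS1, DKC1, NHP2, IMP3, IMP4, NOLC1 and GNL3. The names found 87 of the 42924 probe sets tested and 48 of 15115 genes, where a gene was stood for by its probe set with the highest mean over all 12 arrays. Of the names spelled out in full, 3 (BOP1, IMP4 and GNL3) met no probe set annotated with that single symbol and were not analysed here, and neither was POLR1B. The rule itself reads symbols and no measured value.

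All 12 arrays carried RNA of MDCK II tet-off cells, a line of Madin-Darby canine kidney epithelium, freed with collagenase from gels of type I collagen on day 8. In 6 arrays the cells had grown in 2D as flat sheets, the study's control condition, and in 6 they had grown in 3D as multicellular cysts. No gene was altered and no agent set the groups apart, medium with G418 was common to both, and each array held a pool of 4 RNA samples from this 1 line. Values are log2(intensity + 1), and a difference is always 3D minus 2D on that scale with its standard error (SE) and n = 6 arrays a group. A gene is called raised or lowered where the adjusted p of limma, a linear model with moderated variances, was under 0.05 after Benjamini-Hochberg adjustment over all 42924 probe sets.

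Ribosomes are built mostly in the nucleolus. RNA polymerase I copies the ribosomal DNA into a long precursor, small nucleolar ribonucleoproteins (snoRNPs) guide its chemical modification, and 2 large sets of assembly factors then fold, cut and trim it into the 40S and 60S subunits. The pathway follows cell growth, and in many cell types MYC increases the transcription of its genes.

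The nucleolar factors did not move as a block between sheets and cysts. Of the 48 genes, 14 were raised in 3D, 5 were lowered and 29 did not pass the test. That is 29.2% raised against 19.8% of all genes, and 10.4% lowered against 22.9% of all genes. The median difference over the 48 was 0.03 and over all genes -0.05, and 27 of the 48 had a positive difference. Sizes were small: POLR1F, at 0.60, was the only raised member past 1.5-fold, and NOP53, at -0.84, the only lowered one. The 6 and 6 values did not overlap for 9 members higher in 3D, against 13.2% of all genes, and for 3 lower in 3D, against 9.49% of all genes. At the level of single probe sets, 22 of 87 were raised, with 16.7% of all probe sets raised, and 11 were lowered, with 22.0% of all lowered. The split moved with the scaling: after quantile normalization 8 members were raised, all among the 14, and 12 were lowered. These are 16.7% and 25.0% of the members, against 17.4% of all genes raised and 22.4% lowered in that scaling. In that scaling NOL9, NOL11, NOL12, NOLC1, NOP14, POLR1E, UTP14A and UTP18 joined 4 of the 5 lowered genes.

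**Figure D1:**
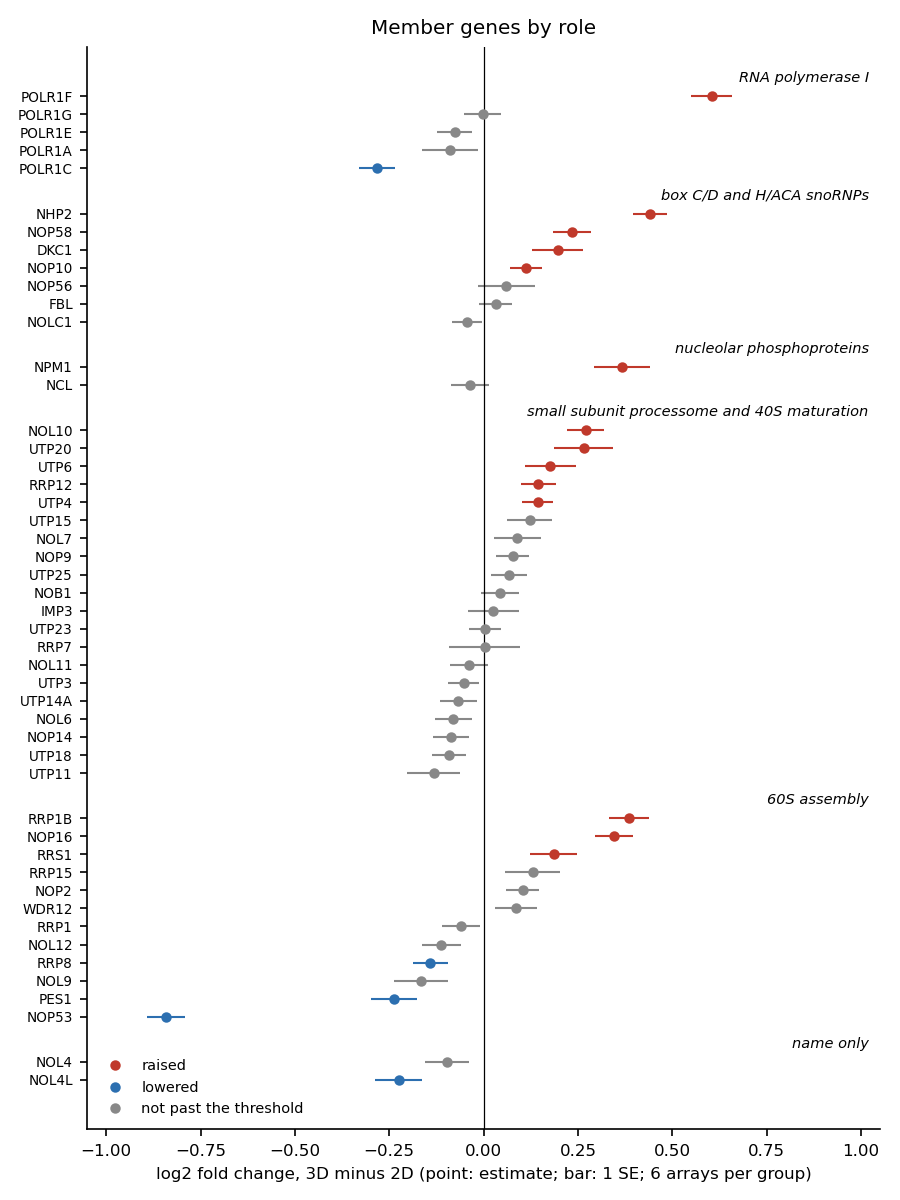
Difference between 3D and 2D on the log2(intensity + 1) scale for the 48 member genes, grouped by role, with the SE of the limma fit as bars. The genes lie between -0.84 (NOP53) and 0.60 (POLR1F), and most lie near 0.

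The control RNA differed between the cultures in the same arrays. Control probe sets at both ends of the actin and GAPDH transcripts gave a 5′ to 3′ ratio, which falls as RNA is degraded or copied only in part. On the log2 scale it averaged -0.91 ± 0.14 for the 2D arrays and -0.54 ± 0.17 for the 3D arrays (SD over 6 arrays a group; exact two-sided permutation p = 0.00866). With that ratio as a covariate, 6 members were raised, against 12.6% of all genes, and 5 were lowered, against 8.33% of all genes. The covariate was added with earlier results of these data known, and the part of RNA quality in each result was not tested beyond it. The median intensity of an array lay between 89.9 and 93.7, and 2D replicate 6 and 3D replicate 2 lay farthest out on the second principal component. Without both of them 14 members were raised and 5 lowered, with DKC1 no longer called and RRP15 called. Of 11 epithelial and kidney tubule markers 9 were measured, and all 9 were above background in both groups. Their summed intensity was 30305 to 34154 in 2D and 35279 to 37138 in 3D, but single genes went both ways. CDH1, KRT8 (0.64), KRT18 (0.18) and CLDN4 (0.37) were raised in 3D (limma adjusted p 5.01e-08 to 0.00425). CDH16 (-0.19), PAX2 (-0.17) and TJP1 (-0.19) were lowered (limma adjusted p 0.0321, 0.0203 and 0.00348). EPCAM (-0.03) and PAX8 (-0.05) did not pass. Summed markers of fibroblasts (8 genes) were 486 to 569 in 2D and 460 to 506 in 3D, those of leukocytes (7 genes) 597 to 653 and 568 to 659, and those of endothelium (5 genes) 386 to 429 and 349 to 390. Of these markers, 7 fibroblast genes in 2D and 6 in 3D, 6 leukocyte genes in both cultures, and 4 and 3 endothelial genes were above background on at least 1 array of the group. COL1A2 (fibroblast), CD79A (leukocyte) and PECAM1 (endothelium) were not above it on any array. The leukocyte markers did not move together. CD14, a monocyte marker, was raised in 3D by 0.43 (limma adjusted p = 3.85e-05). PTPRC (-0.17), CD3E (-0.19) and ITGAM (-0.26) were lowered (limma adjusted p 0.0161, 0.0166 and 0.0259). CD68, CSF1R and CD79A had differences below 0 and did not pass. The part of other cells in the results was not tested, and in bulk RNA fewer cells of a type and less RNA per cell cannot be told apart.

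RNA polymerase I was represented by 5 of its own subunits, with 1 raised, 1 lowered and 3 not past the threshold. A share of 1 in 5 each way is near the shares of all genes (19.8% raised and 22.9% lowered). POLR1F, the subunit known as RPA43, by which the enzyme contacts its initiation factor, had values of 8.74, 8.81 and 8.97 in 2D (lowest, median and highest of 6) and 9.32, 9.44 and 9.58 in 3D. Every 3D array lay above every 2D array. POLR1F rose by 0.60 (SE 0.05, limma adjusted p = 2.89e-07), a ratio of 1.52, and remained raised with the RNA covariate (0.58) and after quantile normalization (0.51). It was measured by 1 probe set.

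POLR1C went the other way. This subunit, which is shared with RNA polymerase III, had values of 9.99, 10.04 and 10.22 in 2D and 9.74, 9.77 and 9.86 in 3D, again with no overlap. It fell by 0.28 (SE 0.05, limma adjusted p = 0.000241). A further POLR1C probe set was also lowered, at -0.24, and the remaining one, at background in both cultures, did not pass. POLR1A, the largest subunit, which carries much of the catalytic centre, ranged from 7.31 to 7.61 in 2D (median 7.45) and from 7.21 to 7.57 in 3D (median 7.29), so the groups overlapped (difference -0.09, limma adjusted p = 0.344). POLR1E and POLR1G, which together form a detachable pair of subunits, had differences of -0.08 and -0.003 and did not pass.

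Of the 7 core and accessory proteins of snoRNPs, 4 were raised and 0 were lowered, by limma or at an unadjusted p under 0.05. That is 57.1% raised and 0.0% lowered by limma, against 19.8% and 22.9% of all genes. With the RNA covariate 1 was raised (NHP2), 14.3% against 12.6% of all genes, and 0 were lowered. After quantile normalization 2 were raised (NHP2 and NOP58) and 1 was lowered (NOLC1). That is 28.6% and 14.3%, against 17.4% and 22.4% of all genes in that scaling. The 3 measured under the rule that belong to the H/ACA class, whose particles convert uridine to pseudouridine, were all raised, but by unequal amounts. NHP2, an RNA-binding core protein of this class, had values of 10.81, 10.89 and 10.97 in 2D and 11.23, 11.34 and 11.40 in 3D. The groups lay well apart, with a difference of 0.44 (SE 0.05, limma adjusted p = 1.33e-06). NOP10, a small core protein that binds the enzyme, went from 11.09, 11.10 and 11.16 to 11.16, 11.22 and 11.32, just short of overlap, a difference of 0.11 (SE 0.04, limma adjusted p = 0.0479). DKC1, the pseudouridine synthase itself, went from 6.75, 6.92 and 7.10 to 6.95, 7.11 and 7.25, with overlap and a difference of 0.20 (SE 0.07, limma adjusted p = 0.0312).

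The calls on NOP10 and DKC1 were near the threshold. NOP10 was no longer called when any 1 of 11 arrays was left out, all but 3D replicate 2, with limma adjusted p between 0.0508 and 0.107. The other NOP10 probe set, at 0.08, did not pass (limma adjusted p = 0.203), and the mean of both was called (0.09, limma adjusted p = 0.0495). DKC1 was no longer called without 2D replicate 2 or 3 or without 3D replicate 3, 4 or 6 (limma adjusted p 0.056 to 0.0775). A further DKC1 probe set was raised, at 0.32, and another, at 0.24, was not. The fourth core protein of the class, GAR1, falls outside the names of the rule and stood on the list of other snoRNP factors. It went from 7.85, 8.00 and 8.11 to 8.10, 8.26 and 8.36, and was raised by 0.26 (SE 0.05, limma adjusted p = 0.00126). With the RNA covariate NHP2 was raised (0.38), whereas GAR1 (0.18), NOP10 (0.07) and DKC1 (0.31) did not pass.

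The box C/D class, which carries out the methylation of ribose in the precursor, was raised in 1 of 3 core members. NOP58 had values of 10.19, 10.30 and 10.44 in 2D and 10.43, 10.54 and 10.59 in 3D, touching at the edge, with a difference of 0.23 (SE 0.05, limma adjusted p = 0.00194). All 3 of its probe sets were raised, by 0.23 to 0.27. FBL, fibrillarin, the methyltransferase of the particle, had nearly the same values in both cultures: 11.30, 11.38 and 11.45 in 2D and 11.33, 11.40 and 11.45 in 3D (difference 0.03, SE 0.04, limma adjusted p = 0.576). NOP56, the partner of NOP58, had 8.68, 8.86 and 9.21 in 2D and 8.83, 8.94 and 9.09 in 3D and did not pass (difference 0.06, SE 0.07, limma adjusted p = 0.54). Its other probe set was lowered, at -0.30 (SE 0.10, limma adjusted p = 0.0227), so the array gives no single direction for NOP56. SNU13, the protein that binds the RNA of this class and stood on a companion list, missed the threshold at 0.11 (SE 0.04, limma adjusted p = 0.0535). NOLC1, a nucleolar chaperone of snoRNPs, ranged from 11.08 to 11.19 in 2D (median 11.17) and from 11.08 to 11.18 in 3D (median 11.10), with a difference of -0.04 (limma adjusted p = 0.404).

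Averaged per array after centring each gene on its own mean, the 7 snoRNP proteins ranged from -0.14 to 0.05 in 2D and from 0.03 to 0.12 in 3D. The groups overlapped through 2D replicate 5, the highest 2D array, which lay above 2 of the 3D arrays.

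The 2 abundant nucleolar phosphoproteins parted. NPM1, nucleophosmin, a chaperone of the outer nucleolus that binds ribosomal proteins, had values of 9.33, 9.74 and 9.85 in 2D and 10.00, 10.03 and 10.12 in 3D. The 3D arrays lay close together and all above 2D, whose lowest value was that of replicate 3, and NPM1 rose by 0.37 (SE 0.07, limma adjusted p = 0.0011). NCL, nucleolin, which binds the nascent precursor, had 11.63, 11.76 and 11.86 in 2D and 11.63, 11.72 and 11.78 in 3D, a difference of -0.04 (SE 0.05, limma adjusted p = 0.581). With the RNA covariate the difference of NPM1 was larger, at 0.56, and it remained raised.

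**Figure D2:**
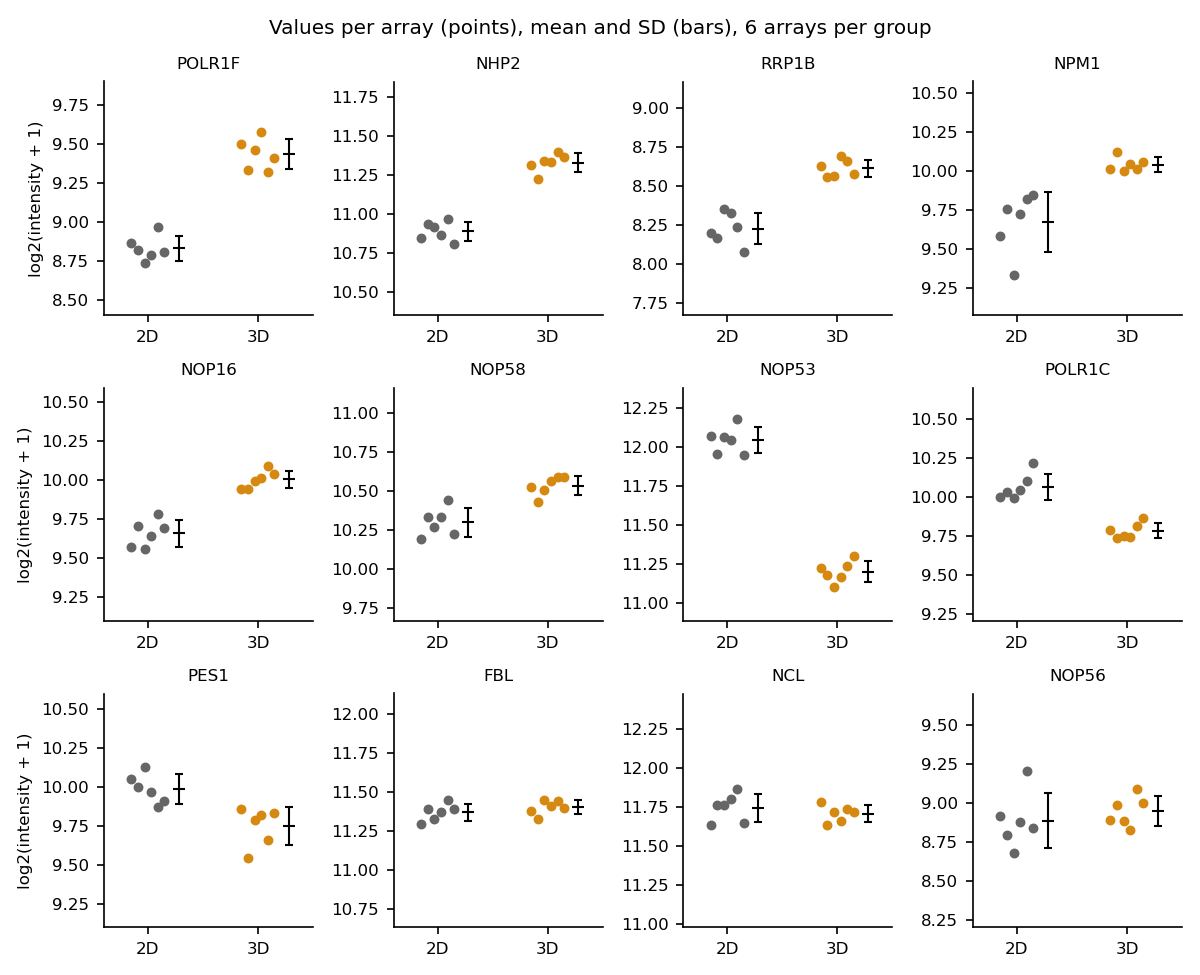
Values of 12 member genes on each of the 12 arrays, as log2(intensity + 1), with 2D and 3D side by side and the group mean and SD as a bar beside them. POLR1F, NHP2, RRP1B, NPM1 and NOP16 lie higher in every 3D array than in any 2D array, NOP53, POLR1C and PES1 lie lower, and the 6 and 6 values of FBL, NCL and NOP56 overlap.

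The small subunit processome, the large particle that assembles on the precursor to make the 40S subunit, and the later 40S factors made up the largest group with 20 genes. Of these 5 were raised and 15 did not pass, and 0 were lowered by limma or at an unadjusted p under 0.05. That is 25.0% raised and 0.0% lowered by limma, against 19.8% and 22.9% of all genes. The median difference was 0.03. After quantile normalization 1 was raised and 4 were lowered, 5% and 20%, against 17.4% and 22.4% of all genes in that scaling. There NOL10 was still raised, UTP20, UTP4, UTP6 and RRP12 were not called, and NOL11, NOP14, UTP14A and UTP18 were lowered. NOL10, a WD-repeat protein of the processome, had values of 8.75, 8.77 and 8.86 in 2D and 8.89, 9.09 and 9.17 in 3D, with no overlap, and rose by 0.27 (SE 0.05, limma adjusted p = 0.000498). Its other probe sets had differences of 0.06 and -0.22 and did not pass, and NOL10 was not called with the mean of all 3 (0.03, limma adjusted p = 0.412). UTP20, a very large scaffold protein of the processome, had 8.14, 8.50 and 8.70 in 2D and 8.61, 8.70 and 8.75 in 3D. It rose by 0.27 (SE 0.08, limma adjusted p = 0.015), with 2D replicate 5 alone of the 2D arrays inside the range of 3D. The other UTP20 probe sets, at 0.17 and 0.20, did not pass (limma adjusted p 0.0613 and 0.0643). With the mean of all 3, UTP20 was called (0.21, limma adjusted p = 0.0059).

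UTP4 and RRP12 changed less but with little scatter. UTP4, of the subcomplex that joins the precursor first, had values of 10.46, 10.53 and 10.61 in 2D and 10.65, 10.68 and 10.71 in 3D and rose by 0.14 (SE 0.04, limma adjusted p = 0.0143). RRP12, which is needed for export of the 40S precursor, had 9.23, 9.33 and 9.36 in 2D and 9.39, 9.43 and 9.59 in 3D, and rose by 0.15 (SE 0.05, limma adjusted p = 0.0242). Neither gene's groups overlapped. RRP12 was not called after quantile normalization (0.06, limma adjusted p = 0.336), with the mean of its probe sets (0.05, limma adjusted p = 0.427) or without 2D replicate 3 (limma adjusted p = 0.0511). Its other probe sets had differences of 0.08 and -0.09 and did not pass. UTP6, another processome component with 4 probe sets, ranged from 8.04 to 8.30 in 2D and from 8.24 to 8.57 in 3D and was called at 0.18 (SE 0.07, limma adjusted p = 0.0462). That call was lost without 2D replicate 1, 2, 3, 4 or 6 and without 3D replicate 1, 3 or 4 (limma adjusted p 0.0517 to 0.112). The other UTP6 probe sets had differences of 0.006 (at background in both cultures), 0.12 and 0.07 and did not pass. With the mean of all 4, UTP6 was not called (0.09, limma adjusted p = 0.15).

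The other processome and 40S genes had differences between -0.13 (UTP11) and 0.12 (UTP15). NOB1, the nuclease that makes the last cut at the end of 18S rRNA, had 9.80, 9.88 and 9.94 in 2D and 9.78, 9.91 and 10.04 in 3D, a difference of 0.04 (SE 0.05, limma adjusted p = 0.502). UTP15 and NOL11, which sit in the same early subcomplex as UTP4, had differences of 0.12 and -0.04. Differences of the remaining ones that were above 0 were 0.09 for NOL7, 0.08 for NOP9, 0.07 for UTP25, 0.03 for IMP3 and 0.003 for both UTP23 and RRP7. Below 0 were UTP11 (-0.13), UTP18 (-0.09), NOP14 (-0.09), NOL6 (-0.08), UTP14A (-0.07) and UTP3 (-0.05). UTP11 was above background on 4 of the 12 arrays, so its difference has little weight. A dimmer probe set of NOL7 was lowered, at -0.16, while the one that stands for the gene was at 0.09.

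The 60S factors, like the subunits of RNA polymerase I, had calls in both directions. Of 12 genes, 3 were raised, 3 were lowered and 6 did not pass. That is 25.0% each way, near the shares of all genes (19.8% raised and 22.9% lowered). NOP53, which brings the RNA exosome to the 60S precursor and also binds the 5S particle, had the largest change among all 48 members. Its values were 11.95, 12.05 and 12.17 in 2D and 11.10, 11.20 and 11.30 in 3D, a fall of 0.84 (SE 0.05, limma adjusted p = 2.4e-09), to 0.558 of the 2D level. The other NOP53 probe sets were lowered as well, by smaller amounts, with differences of -0.29 and -0.35. The size of the fall is therefore uncertain and its direction was shared by all 3 probe sets.

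PES1, pescadillo, works with BOP1 and WDR12 in a complex that matures the 60S precursor. It had values of 9.87, 9.99 and 10.13 in 2D and 9.55, 9.81 and 9.86 in 3D, just short of overlap, and fell by 0.24 (SE 0.06, limma adjusted p = 0.00702). Both of its probe sets were lowered, and with the RNA covariate the difference was larger, at -0.46. WDR12, its partner, had 8.23, 8.37 and 8.55 in 2D and 8.42, 8.46 and 8.53 in 3D and did not pass (difference 0.09, SE 0.06, limma adjusted p = 0.233). RRP8, a methyltransferase of large-subunit rRNA, went from 7.29, 7.36 and 7.46 to 7.13, 7.23 and 7.30, touching at the edge. It fell by 0.14 (SE 0.05, limma adjusted p = 0.0234), and was not called without 2D replicate 2 or without 3D replicate 3 (limma adjusted p 0.0508 and 0.0599).

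Among the raised 60S genes, RRP1B, a nucleolar protein of 60S assembly, had values of 8.08, 8.22 and 8.35 in 2D and 8.55, 8.60 and 8.69 in 3D. The groups were apart, with a difference of 0.39 (SE 0.05, limma adjusted p = 2.65e-05), and all 3 of its probe sets were raised. Its paralogue RRP1 had a difference of -0.06 and did not pass. NOP16, a small protein of the early 60S particle, had 9.55, 9.67 and 9.78 in 2D and 9.94, 10.00 and 10.09 in 3D and rose by 0.35 (SE 0.05, limma adjusted p = 4.83e-05), with its other probe set at 0.44. RRS1, which helps to bring the 5S particle into the subunit, ranged from 6.57 to 6.94 in 2D and from 6.84 to 7.08 in 3D and was called at 0.19 (SE 0.06, limma adjusted p = 0.0292). The call on RRS1 was lost without 2D replicate 1 or 2 or without 3D replicate 4 or 6 (limma adjusted p 0.0589 to 0.07).

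Other 60S genes lay near the threshold. NOP2, which methylates cytosine in large-subunit rRNA, had a difference of 0.10 (SE 0.04, limma adjusted p = 0.0712), whereas another of its probe sets was raised at 0.37. RRP15 was at 0.13 and was called at 0.19 without 3D replicate 2. NOL9, a kinase that acts on the cut ends of the precursor, was at -0.17 (SE 0.07, limma adjusted p = 0.0732), and was called without 3D replicate 4. NOL12, which takes part in precursor cleavage, was at -0.11 and was called at -0.14 without 2D replicate 2. NOL4 and NOL4L share the prefix of the rule alone. NOL4 was at background on every array, and NOL4L fell by 0.22 (SE 0.06, limma adjusted p = 0.0105), from 5.93, 6.02 and 6.19 to 5.67, 5.80 and 5.96, values close to the background of 5.71. These 2 genes and UTP11 were the members that a stricter filter (log2 above 6 on at least 6 arrays) would remove, and the other 45 passed it.

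Of the 48 genes, 26 had several probe sets. In 6 of them every probe set was called in 1 direction: NHP2, NOP16, NOP58 and RRP1B were raised throughout, and NOP53 and PES1 were lowered throughout. No gene had probe sets called in opposite directions. NOP56, NOP2 and NOL7 are the genes in which a call came only from a probe set that did not stand for the gene and that differed from it in size or sign. Conversely, for NOL10, NOP10, RRP12, UTP20 and UTP6 the probe set that stood for the gene was the only one called. In 18 genes, among them NHP2, NOP53, PES1, NOL10, FBL and NOP56, the probe set that stood for the gene had the suffix _s_at or _x_at and can also catch related transcripts.

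**Figure D3:**
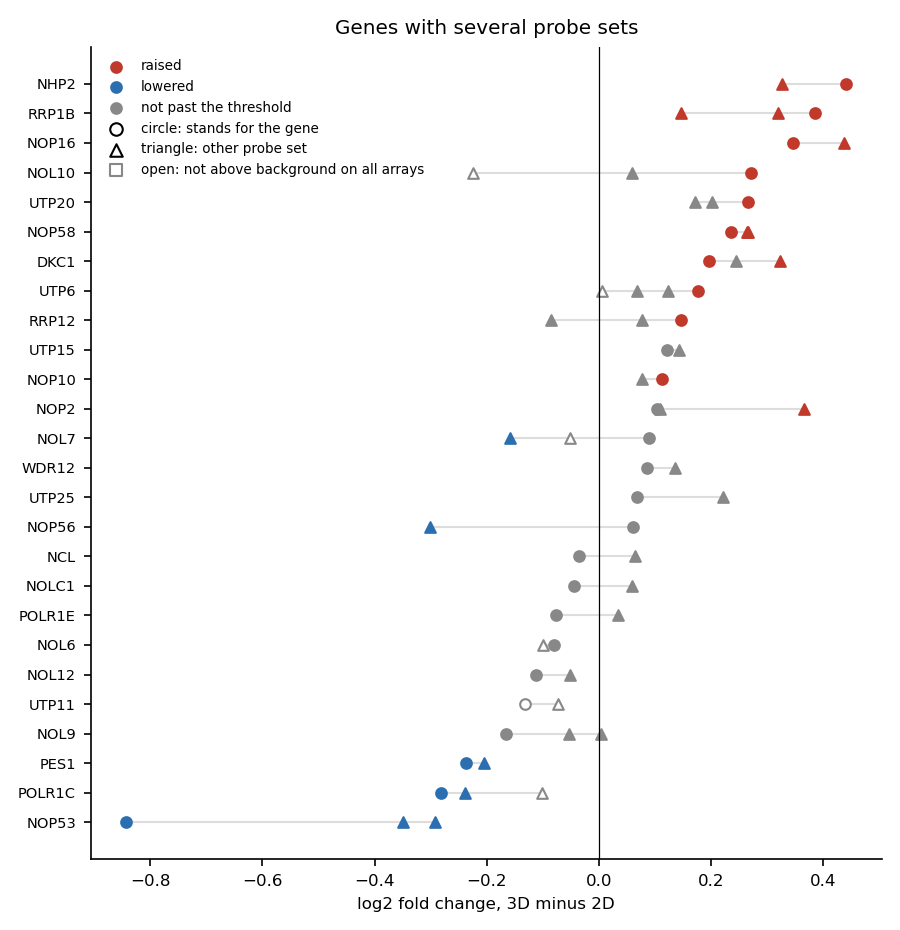
Difference between 3D and 2D (log2) for every probe set of the 26 member genes that have several, with a circle for the probe set that stands for the gene, a triangle for the others, and open symbols for those not above background on all arrays. The 3 probe sets of NOP53 lie at -0.84, -0.35 and -0.29, those of NOP58 between 0.23 and 0.27, and those of NOP56 on either side of 0.

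Certain arrays recurred at the ends of a group's range. In 25 of the 48 genes the highest of the 6 values in 2D was that of replicate 5, which was the highest for 20.9% of all genes. In 17 members the lowest 3D value was that of replicate 2, which was lowest for 22.7% of all genes and whose control RNA ratio, at -0.88, was the lowest of the 3D arrays. Averaged over the 48 genes after centring, the 2D arrays ranged from -0.05 to 0.05 and the 3D arrays from -0.03 to 0.05. The overlap of this mean rested on 2D replicate 5 and 3D replicate 2: the other 2D arrays lay between -0.048 and -0.009, and the other 3D arrays between 0.008 and 0.050. Without 2D replicate 5, 14 members were raised and 5 lowered, 13 and 5 of them shared with the comparison on all arrays. Without 3D replicate 2, 15 were raised and 5 lowered.

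Taking all 23 other ways of fitting, 8 of the 19 called genes were called in every one. These were NHP2, NOP16, NPM1, POLR1F and RRP1B, raised, and NOP53, PES1 and POLR1C, lowered. The other 11 lost their call in at least 1. With the RNA covariate, DKC1, NOL10, NOP10, NOP58, RRS1, UTP20, UTP4 and UTP6 were no longer raised, and NOL4L and RRP8 were no longer lowered. For some of these the difference itself was as large with the covariate and the SE was wider: NOP58 stayed at 0.23 (limma adjusted p = 0.0688) and UTP20 was at 0.37 (limma adjusted p = 0.0551). NOL9 and RRP7 were called lowered in that fit, at -0.33 and -0.37.

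**Figure D4:**
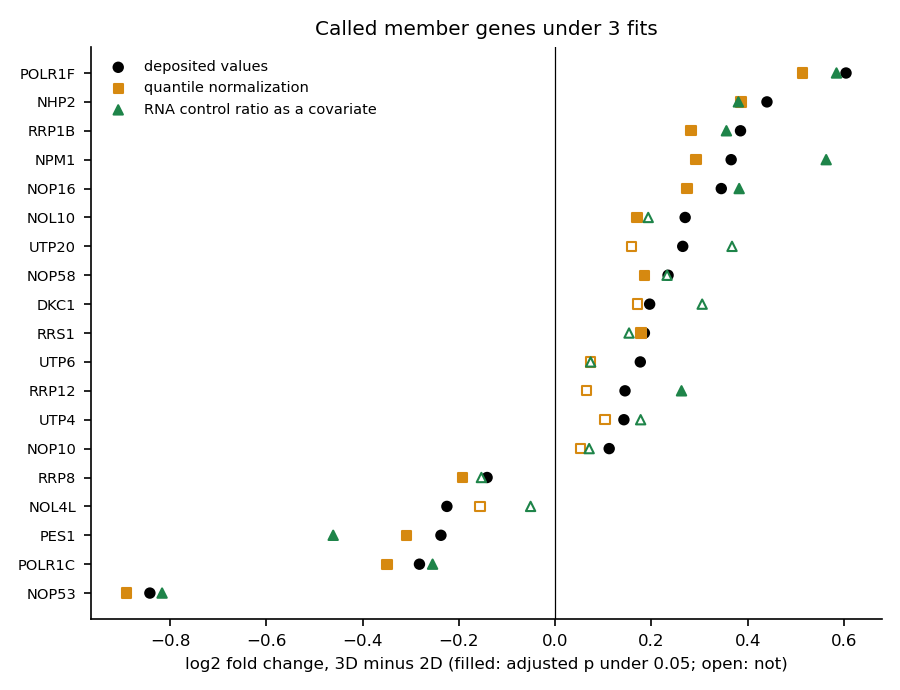
Differences (log2, 3D minus 2D) of the 19 called members in the deposited scaling, after quantile normalization and with the RNA control ratio as a covariate; filled symbols have a limma adjusted p under 0.05. NHP2, NOP16, NPM1, POLR1F and RRP1B are filled and above 0 in all 3 fits, and NOP53, PES1 and POLR1C are filled and below 0.

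The rest of the pathway was examined in 160 genes of 8 further lists, of 179 listed. Of these 37 were raised and 26 lowered, which is 23.1% and 16.2%, against 19.8% and 22.9% of all genes. Their median difference was 0.03. Of 7 factors that start or end transcription by RNA polymerase I, 0 passed the limma test, and 0 had an unadjusted p under 0.05. Among them were UBTF (-0.08), which opens the ribosomal DNA, and RRN3 (-0.09), the initiation factor that POLR1F contacts. Of 3 subunits shared by the RNA polymerases, POLR2F was lowered, by 0.24, and was not called with the RNA covariate (-0.16, limma adjusted p = 0.12).

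Among 42 other processome and 40S factors, 12 were raised and 6 lowered, 28.6% and 14.3%, against 19.8% and 22.9% of all genes. RIOK1, a kinase of late 40S maturation, rose by 0.38, WDR46 by 0.36 and NOC4L by 0.33, while ESF1 fell by 0.37. With the RNA covariate none of these 4 passed. Of 57 other 60S factors, 12 were raised and 10 lowered, 21.1% and 17.5%, not far from those shares of all genes. RSL1D1 rose by 0.50 (SE 0.06), from 8.92, 9.10 and 9.14 in 2D to 9.37, 9.58 and 9.67 in 3D. RBM28 rose by 0.39 and SDAD1 by 0.38, while ZNF622, which acts on the 60S subunit in the cytoplasm, fell by 0.38, and these 4 were called with the covariate too.

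Other snoRNP factors showed 2 raised and 3 lowered of 12, 16.7% and 25.0%, with all genes at 19.8% and 22.9%. The raised ones included GAR1, described above. COIL, coilin, the scaffold of Cajal bodies, in which snoRNPs mature, fell by 0.57 (SE 0.05), from 8.79, 8.87 and 9.01 in 2D to 8.24, 8.30 and 8.39 in 3D. SHQ1, a chaperone of DKC1, fell by 0.23 and RUVBL1, an ATPase of snoRNP assembly, by 0.16. COIL was also called with the RNA covariate (-0.56), whereas SHQ1 and RUVBL1 were not (limma adjusted p 0.0676 and 0.518). Among 25 genes of the RNA exosome and the other nucleases of the precursor, 9 were raised and 3 lowered. The share raised was above the 19.8% of all genes, and the share lowered was below their 22.9%. EXOSC7 and EXOSC5, subunits of the exosome ring, rose by 0.38 each and ISG20L2, a nuclease that trims the 5.8S precursor, by 0.36, while EXOSC2 fell by 0.31. With the RNA covariate EXOSC7 and EXOSC5 were called, and ISG20L2 (0.24, limma adjusted p = 0.18) and EXOSC2 (-0.36, limma adjusted p = 0.0726) were not.

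Of 11 genes of the MYC network, 2 were raised and 2 lowered, 18.2% each, with all genes at 19.8% and 22.9%. MYC itself had values of 8.40, 8.76 and 8.80 in 2D and 9.21, 9.35 and 9.49 in 3D, and rose by 0.68 (SE 0.08), with no overlap. MXD3 was raised by 0.19 and MXD1, a repressor that competes for the same partner, was lowered by 0.23, both called in some but not all fits that left out 1 array. MAX, that partner, fell by 0.15. MYC (0.46) and MXD3 (0.37) were also called with the covariate, whereas MXD1 and MAX were not (limma adjusted p 0.0961 and 0.23). In the list of the 5S particle and p53 surveillance, RPL5 was the only one of 3 to pass and fell by 0.23, also with the covariate (-0.28).

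Ribosomal proteins, the products that these factors assemble, gave other counts. Of 57 genes of cytosolic ribosomal proteins 3 were raised and 39 lowered, 5.26% and 68.4%, with a median of -0.17. The 73 genes of mitochondrial ribosomal proteins, which are assembled outside the nucleolus, had 16 raised and 11 lowered, 21.9% and 15.1%. Their median was 0.02. All genes stood at 19.8% raised and 22.9% lowered. The differences between these sets were not tested.

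**Figure D5:**
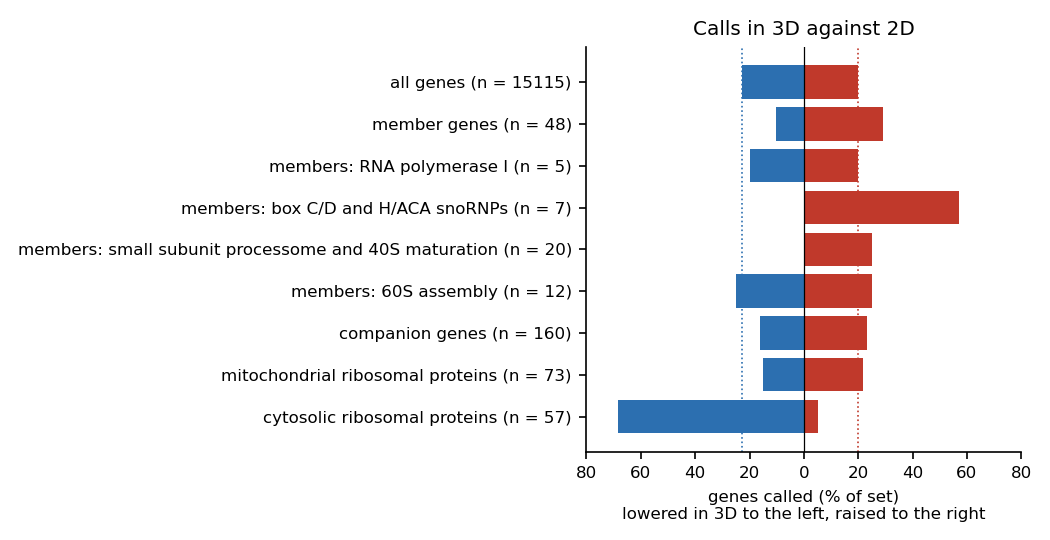
Percent of genes raised and lowered in 3D (limma adjusted p under 0.05) among the member genes, the companion genes, cytosolic and mitochondrial ribosomal proteins and all 15115 genes. The members stand at 29.2% raised and 10.4% lowered, the cytosolic ribosomal proteins at 5.26% and 68.4%, and all genes at 19.8% and 22.9%.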

How the data were processed

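Pooled RNA of MDCK cells was measured on 12 dog expression arrays, whose culture (2D or 3D) comes from the labels. The deposited values are linear intensities, 1 for each probe set on each array. The submitters' processing notes name GCRMA, a background correction and summary method, while its version is not given, nor is any later scaling, in the sources used here. Values were taken as log2(intensity + 1) without further scaling or a filter, which understates the change of dim genes.

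Tests covered 42924 probe sets and left out 111 Affymetrix controls. The platform annotation gave 29254 of them 1 gene symbol, 439 several and 13231 none, and genes were taken from the first kind. Of the 87 member probe sets, 84 matched a RefSeq gene of UU_Cfam_GSD_1.0, with 0 symbols changed. The other 3 were those of NOP58. That table served for names, and no coordinates are printed. Background is the 95th percentile of 59 controls that match no dog gene, on average 5.71 (log2).

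The whole table was fitted in limma 3.58.1 (lmFit, eBayes, R 4.3.3), two-sided and with culture as the only term. The calculation was tested on simulated data. The control RNA ratio had an exact permutation test over 924 assignments in Python 3.11.15, and matplotlib 3.10.9 drew the figures. The labels call arrays biological replicates but do not say which cultures entered a pool. The p-values therefore measure the spread between pools, whose number limits the precision.

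The members, lists and alternatives were chosen with earlier results of these data known. Every member is named by role. Values per group are given for the 6 that rose most, the 5 that fell and genes fixed by name, and up to 4 changed genes are named per further list. Alternatives were a filter (log2 above 6 on at least 6 arrays), quantile normalization, median centring, a pseudocount of 16, trend and robust variance fitting, array weights, a block on replicate number, the mean of a gene's probe sets, no _s_at or _x_at probe sets, the RNA ratio as a covariate, leaving out each array or both outer ones, and a threshold of 0.01.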

Additional observations from a re-analysis of the deposited data

Results flagged for a closer look

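Of 96 groups of 6 values (48 genes in 2 cultures), 6 held an array whose gap to the others exceeded Dixon's 95% critical value as a share of the range, where chance gives about 1 in 20. Each lay on a different array. UTP6 was 8.04 in 2D replicate 6, against 8.20 to 8.30 on the other 2D arrays, and its call was lost without that array. UTP15 was 9.20 in 3D replicate 5 (the next was 9.05), and UTP14A was 8.74 in 3D replicate 3 (others 8.89 to 8.97). NOP2 was 9.20 in 3D replicate 1 (others 9.30 to 9.36), and it was raised at 0.13 without that array (limma adjusted p = 0.0345). UTP3 was 11.01 in 2D replicate 5 (others 10.87 to 10.92) and UTP23 was 9.44 in 2D replicate 2 (others 9.29 to 9.35), and neither was called.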

How the results depend on the processing

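Leaving out 1 array gave 10 to 15 raised and 4 to 6 lowered member genes, 17 to 26 raised and 10 to 11 lowered member probe sets, 30 to 39 raised and 22 to 29 lowered companion genes, and a member median of 0.014 to 0.052. The RNA covariate gave 6 raised member genes, 10 raised and 7 lowered member probe sets, 17 raised and 11 lowered companion genes, and a member median of -0.0088, below 0 where the deposited scaling gave 0.03. Quantile normalization gave 8 raised and 12 lowered member genes, 18 lowered member probe sets, 40 lowered companion genes and a median of -0.021. Without _s_at and _x_at probe sets, 14 member probe sets were raised. At an adjusted p under 0.01, a threshold added later, 7 member genes were raised and 3 lowered. The fit with a replicate block gave 13 raised and 6 lowered member genes, with NOL9 gained and NOP10 lost. Same-numbered arrays of the 2 cultures correlated at 0.0008 to 0.36 after removal of group means, and above 0.1 in 3 of 6 pairs. For 2D replicates 1, 2, 3 and 4 the most correlated 3D array bore the same number, and for 5 and 6 it did not. The main fit did not take the numbers as pairs, and whether same-numbered arrays shared a step was not tested. The other alternatives gave 11 to 15 raised and 4 to 7 lowered members. The cause of these changes was not tested. The 5 member probe sets at background in both groups bound no change.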
